A study of Mus musculus with 15 samples.

Results

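The 34 genes described here encode the machinery that copies DNA in S phase. They were chosen by name, and each of the 34 was found with one Ensembl ID both in the table of the steady-state libraries, which lists 28347 genes, and in the table of the surgery libraries, which lists 48709 genes. By role they comprise the 6 subunits of the MCM helicase (Mcm2 to Mcm7), 5 origin-licensing factors, 3 partners of the active helicase, 4 clamp and clamp-loader subunits, 4 polymerase and primase subunits, 3 genes of strand processing and single-stranded DNA binding, 5 enzymes of nucleotide supply, the methylation maintenance factor Uhrf1 and 3 regulators of the G1/S transition. Mcm10, which activates the loaded helicase, was grouped with the licensing factors. RNA-seq had been performed on 15 libraries of sorted cells from C57BL/6 mice, 3 in each of 5 groups. In the steady state these were CX3CR1-high CCR2-high macrophages of visceral adipose tissue (CCR2-high here), CX3CR1-low CCR2-low macrophages of the same tissue (CCR2-low here), and blood cells that the labels call monocytes. The other two groups were CCR2-low macrophages of visceral fat taken after myocardial infarction (MI), an injury of the heart muscle, and after sham surgery. The labels give no ages, pooling or day of sorting, nor whether the 3 libraries of a group came from separate mice, so p-values measure the spread between these libraries only.

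A replication origin is licensed when ORC, Cdc6 and Cdt1 load the MCM helicase onto DNA in G1. Cdc45 and the GINS complex then join MCM to form the active CMG helicase, primase and the polymerases copy the strands while the PCNA clamp, loaded by RFC, holds the polymerases on DNA, and Fen1 and Lig1 join the lagging-strand fragments. Most of these genes are known targets of the E2F factors, which cyclin E and its kinase release from the retinoblastoma protein at the G1/S transition. Macrophages of adult tissues can divide locally, whereas blood monocytes are largely non-dividing cells made from dividing progenitors in the bone marrow.

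The promoter sequences of 5 members are shown because E2F sites are the textbook link between these genes. RefSeq promoters (GRCm38.p6) were in the table used here for 29 of the 34 genes, without Mcm4, Ccne2, Pole, Gins1 and Gins2. Of these 29, 8 held at least one of the letters TTTGGCGC, TTTGCCGC, TTTCGCGC or TTTCCCGC on either strand within 250 bases upstream of a start site, which is 27.6%, beside 2.16% of 27025 genes with a promoter in the table. The 8 were Cdc6, Mcm5, Mcm6, Mcm7, Orc1, Pola1, Rfc3 and Uhrf1. The letters CCAAT occurred in 17 of 29 members (58.6%), beside 37.5% of all genes, and TTTGAA or TTTAAA, the letters of the CHR element of mitotic genes, occurred in 6 of 29 (20.7%), beside 28.1% of all genes. Member promoters had a median GC content of 58.8%, against 52.4% over all promoters. The lines below run 5′ to 3′ on the coding strand. Capitals mark the E2F letters and, in Mcm6, also CCAAT, which reads ATTGG there.
Mcm6 (chr1:128359706-128359955, minus strand): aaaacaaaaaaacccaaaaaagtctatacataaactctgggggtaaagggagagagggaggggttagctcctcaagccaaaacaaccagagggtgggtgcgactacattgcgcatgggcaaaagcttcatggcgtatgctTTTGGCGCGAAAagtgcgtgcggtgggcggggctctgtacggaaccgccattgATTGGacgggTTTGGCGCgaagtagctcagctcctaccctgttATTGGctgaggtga
Mcm5 (chr8:75109336-75109387, plus strand): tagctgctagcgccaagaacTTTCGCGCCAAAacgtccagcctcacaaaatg
Cdc6 (chr11:98907993-98908040, plus strand): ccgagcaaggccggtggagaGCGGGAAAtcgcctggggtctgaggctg
Uhrf1 (chr17:56304108-56304155, plus strand): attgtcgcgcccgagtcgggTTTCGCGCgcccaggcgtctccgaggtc
Pola1 (chrX:93632266-93632313, minus strand): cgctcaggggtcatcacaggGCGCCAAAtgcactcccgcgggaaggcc
In Mcm5 and in the upstream spot of Mcm6 the runs of 12 capitals hold 2 of the letter strings on opposite strands, overlapping by 4 bases. The Cdc6 and Uhrf1 stretches lie downstream of the gene starts in GENCODE M21 (chr11:98907801 and chr17:56303321), so they are upstream only of later start sites. The stretches of Mcm7, Orc1 and Rfc3, which hold 48, 31 and 30 bases of annotated exons, are not shown. A match is a description of these letters only, and no factor was measured on DNA here.

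The steady-state values are TPM, transcripts per 1e6 transcripts, and the surgery values are RPKM, reads per kilobase and 1e6 reads. Both are scaled to gene length, so genes can be compared within a table, but no test was run between the tables. Over the 5745 and 5700 genes whose length the authors gave, and so for part of each library, about 19.6 to 43.9 M reads (M, 1e6) were worked back for steady-state libraries and 44.6 to 58.7 M for surgery libraries, where the RPKM imply totals of 57.9 to 75.7 M reads. The member with the fewest reads was Orc1, with about 96, 52 and 1094 reads in the lowest CCR2-high, CCR2-low and labelled monocyte library, and 124 and 143 in the lowest MI and sham library. The macrophage marker Adgre1 averaged 650 ± 51.9 TPM in CCR2-high, 686 ± 63.9 in CCR2-low and 7.77 ± 1.48 in labelled monocyte libraries (SD, n = 3 each). The libraries labelled blood monocytes carried the monocyte gene Ly6c2 at 5651 ± 584 TPM. The rest of a list of 12 monocyte genes was mixed. Of 11 tested, 4 passed as lower and 6 as higher in CCR2-high macrophages than in these libraries (limma, adjusted p under 0.05). In CCR2-low macrophages 7 passed as lower and 3 as higher. Over all genes tested 51.3% and 50.6% passed as lower, and 26.5% and 28.4% as higher. The labelled monocyte libraries also held 14 of 14 markers of granulocyte-monocyte progenitors above 0, at a summed 26270 to 31565 TPM, against 72.9 to 91.9 in CCR2-high and 54.9 to 72.2 TPM in CCR2-low libraries. Mpo and Elane, granule enzymes of marrow progenitors, averaged 11288 ± 1559 and 10672 ± 1484 TPM there, so these are called libraries labelled blood monocytes throughout.

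**Figure D1:**
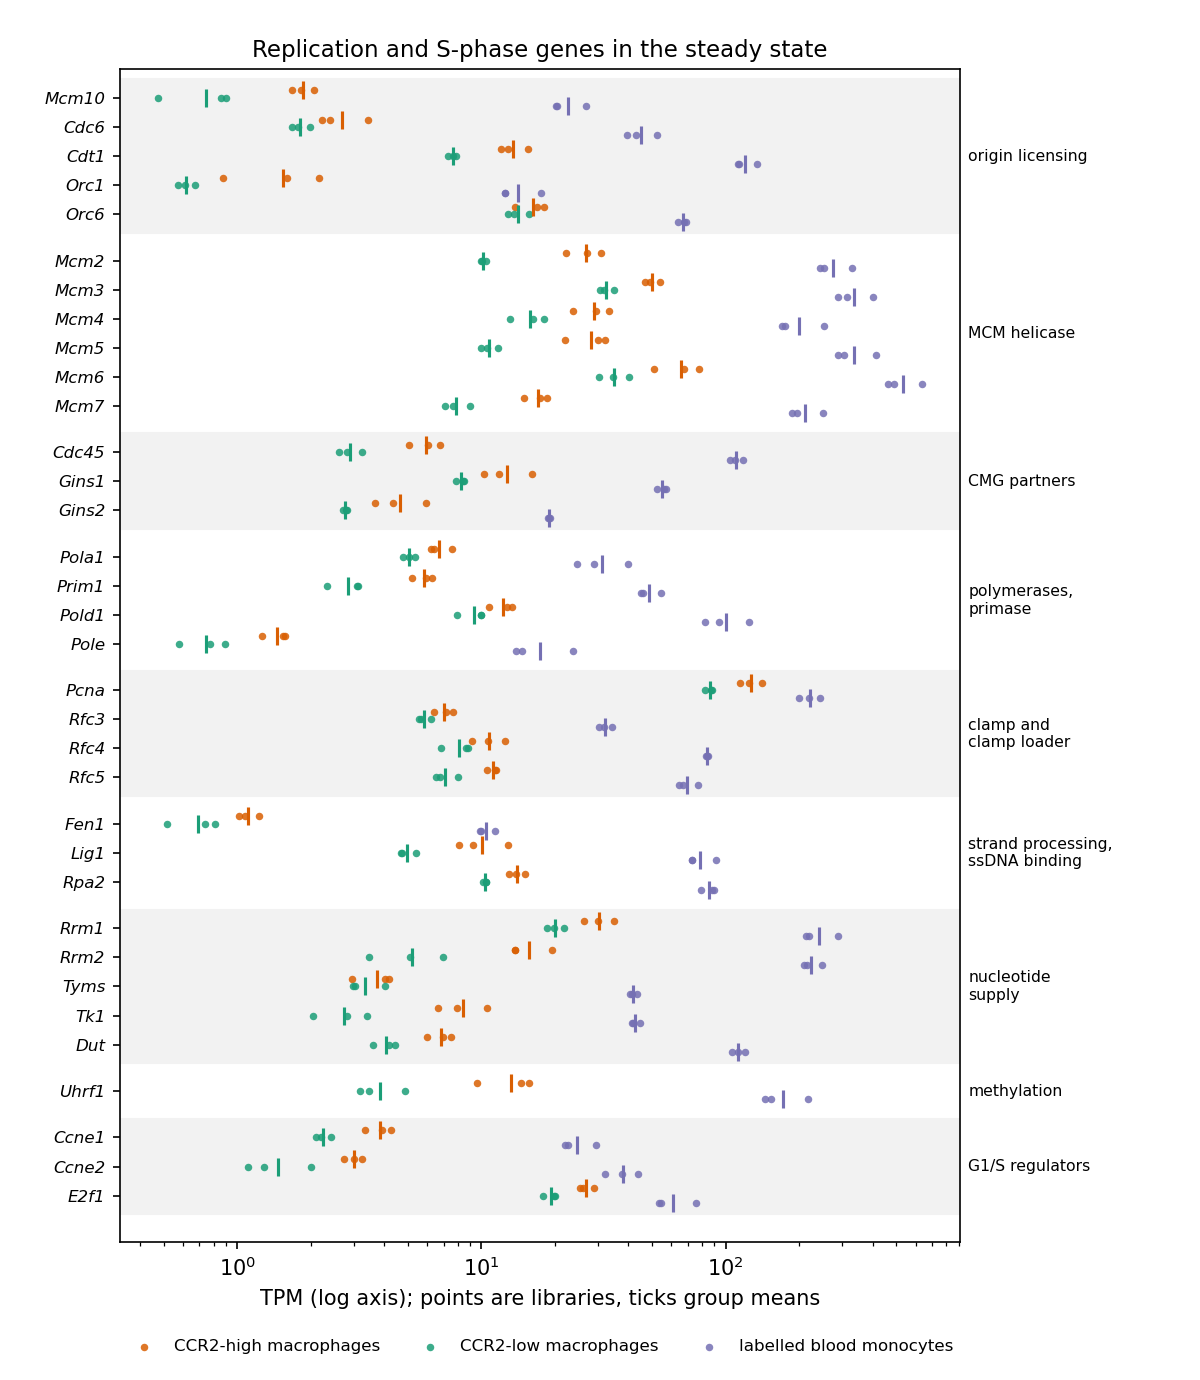
TPM of each of the 34 genes (rows, grouped by role; log axis) in the 9 steady-state libraries, with points for libraries and ticks for group means. Libraries labelled blood monocytes lie to the right for every gene, and CCR2-high libraries lie to the right of CCR2-low libraries without overlap for 32 of 34 genes.

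All 34 genes were detected in every steady-state library. Group means ran between 1.10 (Fen1) and 127 TPM (Pcna) in CCR2-high macrophages, with a median of 10.9. In CCR2-low macrophages they ran between 0.616 (Orc1) and 85.9 TPM (Pcna), with a median of 5.49. In libraries labelled blood monocytes they ran between 10.4 (Fen1) and 530 TPM (Mcm6), with a median of 74.2. Pcna, the sliding clamp, was the most abundant member in both macrophage groups and supplied 21.3% of the summed level in CCR2-high and 24.3% in CCR2-low macrophages, but 5.43% in libraries labelled blood monocytes, where it stood seventh. Mcm6 and Mcm3 followed Pcna in both macrophage groups. At the low end Mcm10, Orc1, Pole and Fen1 averaged under 1 TPM in CCR2-low macrophages.

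CCR2-high macrophages held more transcript of most replication genes than CCR2-low macrophages, which is the comparison of the 2 subsets of the tissue. The 34 genes summed to 667, 599 and 517 TPM in the CCR2-high libraries, against 343, 349 and 369 TPM in the CCR2-low libraries. Of the 34 genes, 24 (70.6%) passed the test, and all 24 were higher in CCR2-high macrophages. Over the 15467 genes tested, 17.7% were called and 8.93% were called higher. The filter ran over all 9 steady-state libraries, so these genes include some that reached 1 TPM only in the labelled monocyte libraries. With only the 6 macrophage libraries fitted, 2743 genes passed and 33 members could be tested, without Orc1. In that fit Mcm10, Pole and Fen1 reached 1 TPM only in CCR2-high libraries (highest CCR2-low values 0.902, 0.891 and 0.813 TPM). They entered it through the CCR2-high libraries alone, so their direction and lack of overlap there were fixed by the filter. The 3 CCR2-high libraries lay above the 3 CCR2-low libraries for 32 of 34 members (94.1%), beside 19.7% of all genes tested. On the log2(TPM + 1) scale, on which all fold changes of the steady state are given and which understates changes of low genes, the median difference of the members was 0.60 (lowest 0.12, highest 1.55, median SE 0.14), beside -0.01 for all genes. Every adjusted p is two-sided from limma with Benjamini-Hochberg adjustment over all genes tested, and a gene passed when it was below 0.05. In bulk libraries fewer cycling cells and less RNA per cell cannot be told apart.

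The MCM helicase, a ring of 6 related subunits that unwinds the DNA at the fork, passed as a whole, with 6 of 6 subunits higher in CCR2-high macrophages. Mcm6 (mm10 chr1:128331590-128359664) was at 77.9, 67.5 and 51.1 TPM in CCR2-high libraries, against 30.4, 34.4 and 40.3 TPM in CCR2-low libraries. Mcm3 (chr1:20802968-20820312) was at 53.8, 49.1 and 46.6 TPM in CCR2-high libraries, against 30.6, 34.8 and 31.7 TPM in CCR2-low libraries. For both subunits the lowest CCR2-high library lay above the highest CCR2-low library. Mcm6 rose by 0.87 on the log2 scale (SE 0.17, adjusted p = 0.00633) and Mcm3 by 0.61 (SE 0.13, adjusted p = 0.00826), and Mcm4 rose by 0.83 (SE 0.18, adjusted p = 0.0105). The other three subunits differed more. Mcm2 averaged 26.7 ± 4.26 TPM in CCR2-high and 10.1 ± 0.240 TPM in CCR2-low macrophages, a log2 change of 1.303 (SE 0.14, adjusted p = 0.000308). Mcm5 averaged 28.0 ± 5.33 TPM in CCR2-high and 10.8 ± 0.860 TPM in CCR2-low macrophages, a log2 change of 1.29 (SE 0.17, adjusted p = 0.000655). Mcm7 averaged 17.0 ± 1.79 TPM in CCR2-high and 7.89 ± 0.968 TPM in CCR2-low macrophages, a log2 change of 1.017 (SE 0.14, adjusted p = 0.000902). The order of the subunits by level, with Mcm6 first and Mcm3 next, was the same in both macrophage groups.

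**Figure D2:**
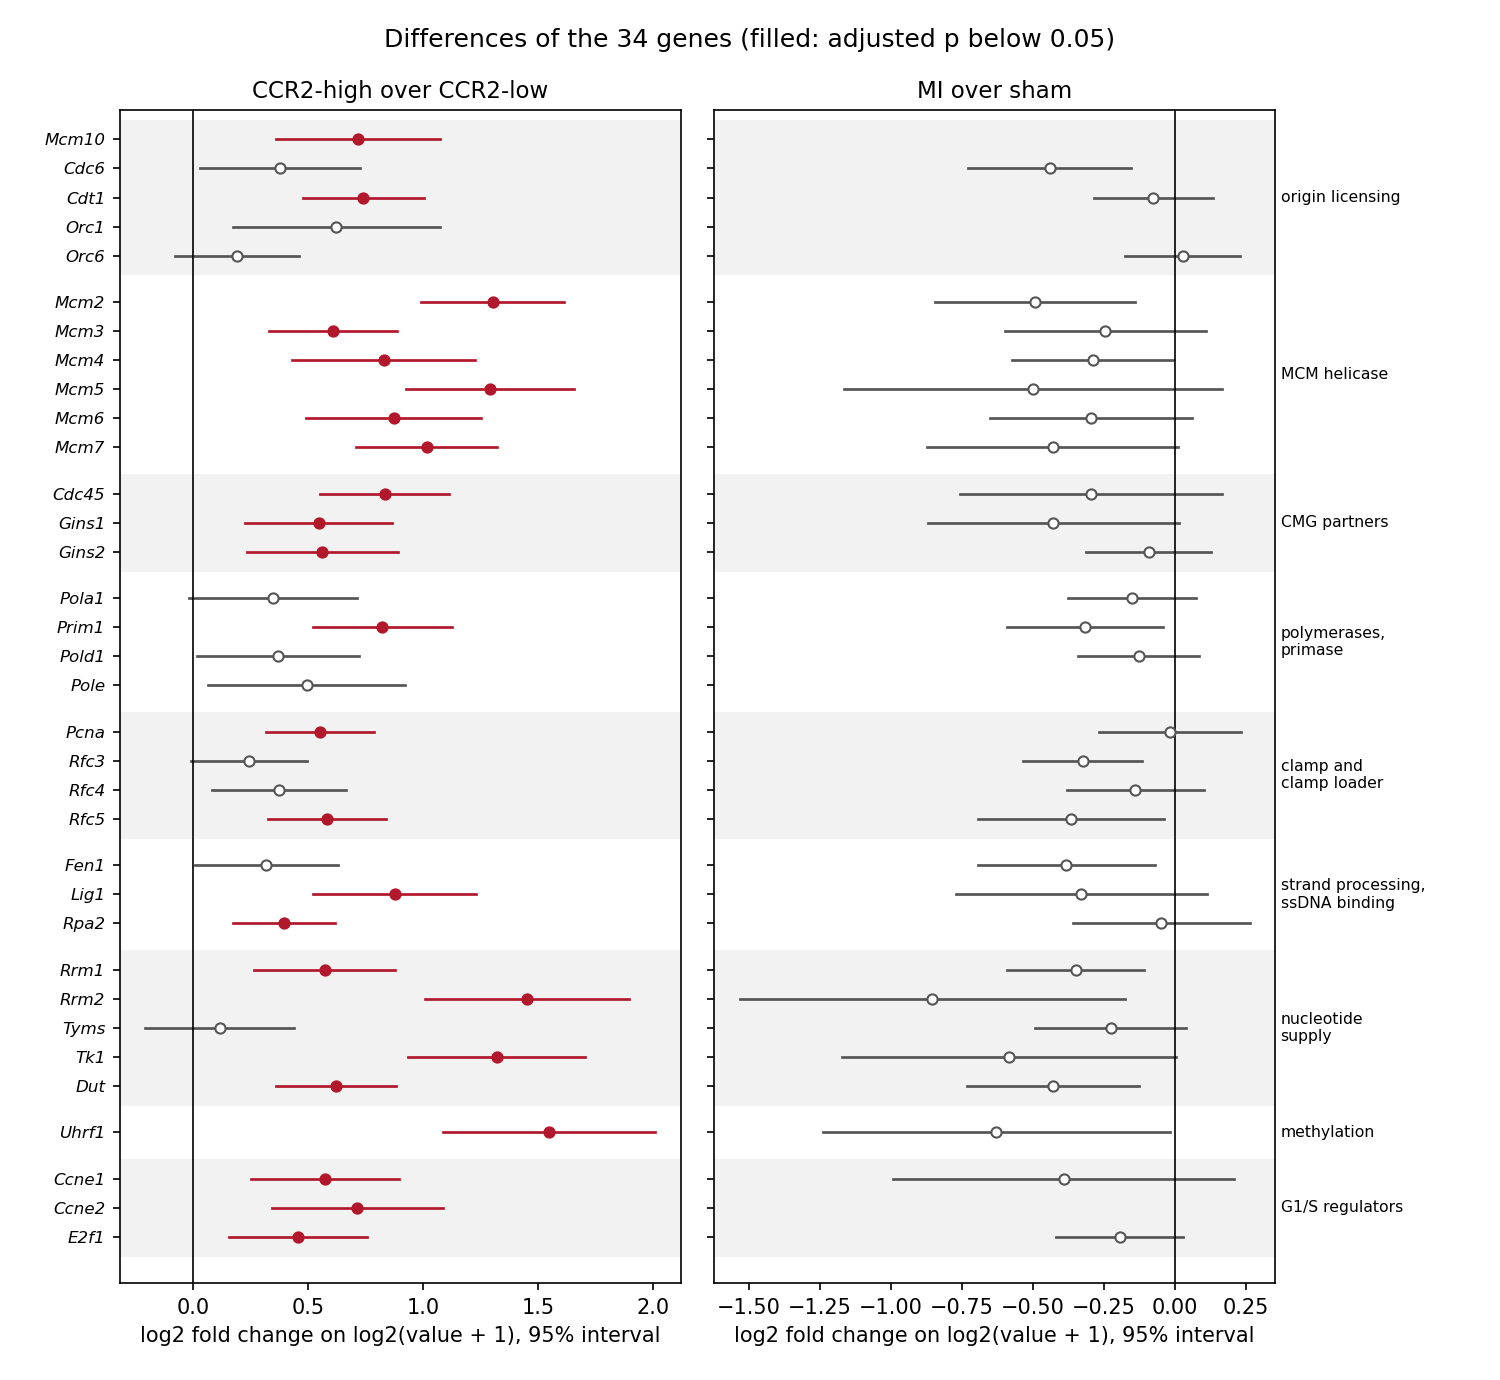
Log2 fold change of each gene with its 95% interval, for CCR2-high over CCR2-low macrophages (left; 34 genes) and for MI over sham (right; 30 genes tested). Filled points passed an adjusted p of 0.05: 24 genes on the left, and 0 on the right.

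Of the 5 genes grouped here as licensing factors, 2 passed, and of these Mcm10 acts after the helicase is loaded. Cdt1 (chr8:122568015-122573554), the loading factor that geminin restrains, was at 15.5, 12.8 and 12.1 TPM in CCR2-high libraries, against 7.68, 7.86 and 7.31 TPM in CCR2-low libraries. Mcm10 (chr2:4989714-5012791), which activates the loaded helicase, was at 2.07, 1.82 and 1.68 TPM in CCR2-high libraries, against 0.475, 0.859 and 0.902 TPM in CCR2-low libraries. Neither gene overlapped between the groups, and the changes were 0.74 for Cdt1 (SE 0.12, adjusted p = 0.00220) and 0.72 for Mcm10 (SE 0.16, adjusted p = 0.0125). Orc6 (chr8:85299632-85308278), the smallest subunit of the origin recognition complex, overlapped, with 16.9, 18.1 and 13.7 TPM in CCR2-high libraries, against 15.7, 13.7 and 12.9 TPM in CCR2-low libraries. Its log2 difference was 0.19 (95% interval -0.08 to 0.46, adjusted p = 0.331). Cdc6, the ATPase that works with ORC, and Orc1, the largest ORC subunit, differed by 0.38 (adjusted p = 0.131) and 0.62 (adjusted p = 0.0590) without overlap between libraries.

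All 3 partners that complete the active helicase were higher in CCR2-high macrophages. Cdc45 (chr16:18780447-18811987) was at 6.77, 6.05 and 5.04 TPM in CCR2-high libraries, against 2.62, 2.81 and 3.24 TPM in CCR2-low libraries. Gins1 (chr2:150905400-150931280), a GINS subunit, was at 16.0, 10.3 and 11.8 TPM in CCR2-high libraries, against 7.85, 8.48 and 8.44 TPM in CCR2-low libraries. The groups did not overlap for either gene. The log2 changes were 0.83 for Cdc45 (SE 0.13, adjusted p = 0.00159), 0.55 for Gins1 (SE 0.14, adjusted p = 0.0253) and 0.56 for Gins2 (SE 0.15, adjusted p = 0.0257). In GENCODE M21, 67.3% of the exon bases of Gins2 lie opposite exons of Gse1, and the counting is not stated to use strand, so reads of the 2 genes may not have been told apart.

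Among the polymerase subunits 1 of 4 passed. Prim1 (chr10:128015168-128030037), the catalytic primase subunit that lays the RNA primers, was at 5.95, 6.26 and 5.18 TPM in CCR2-high libraries, against 3.10, 2.32 and 3.13 TPM in CCR2-low libraries, a log2 change of 0.82 (SE 0.14, adjusted p = 0.00261). Pold1 (chr7:44532746-44548849), the catalytic subunit of the lagging-strand polymerase delta, was at 13.4, 12.8 and 10.8 TPM in CCR2-high libraries, against 7.92, 10.001 and 9.95 TPM in CCR2-low libraries. Those groups did not overlap, but the log2 difference of 0.37 (SE 0.16, adjusted p = 0.143) did not pass. Pola1, which extends the primers, and Pole, the catalytic subunit of the leading-strand polymerase epsilon, differed by 0.35 (adjusted p = 0.185) and 0.49 (adjusted p = 0.111).

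Of the clamp and its loader, 2 of 4 genes passed. Pcna (chr2:132249162-132253314) was at 141, 124 and 115 TPM in CCR2-high libraries, against 87.5, 82.3 and 88.0 TPM in CCR2-low libraries, a change of 0.55 (SE 0.11, adjusted p = 0.00566). Rfc4 (chr16:23113943-23127737), a clamp-loader subunit, was at 12.5, 10.6 and 9.17 TPM in CCR2-high libraries, against 8.78, 6.80 and 8.61 TPM in CCR2-low libraries. The CCR2-high libraries were higher for both genes, by a margin too small to pass for Rfc4 (0.37, SE 0.13, adjusted p = 0.0780). Of the other loader subunits, Rfc5 rose by 0.58 (SE 0.12, adjusted p = 0.00677) and Rfc3 differed by 0.24 (SE 0.11, adjusted p = 0.179). Exons of a gene on the other strand cover 12.7% of Rfc4 (Eif4a2) and 10.7% of Rfc5 (Wsb2).

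Lig1 (chr7:13277283-13311433), the ligase that seals lagging-strand fragments, was at 12.8, 9.27 and 8.12 TPM in CCR2-high libraries, against 4.73, 4.71 and 5.39 TPM in CCR2-low libraries. Rpa2 (chr4:132768332-132778752), a subunit of the protein that coats single-stranded DNA, was at 13.8, 15.1 and 13.004 TPM in CCR2-high libraries, against 10.4, 10.2 and 10.5 TPM in CCR2-low libraries. Both rose without overlap, Lig1 by 0.88 (SE 0.16, adjusted p = 0.00441) and Rpa2 by 0.40 (SE 0.10, adjusted p = 0.0214). Fen1 (chr19:10199132-10204169), the flap nuclease, was at 1.07, 1.013 and 1.23 TPM in CCR2-high libraries, against 0.517, 0.738 and 0.813 TPM in CCR2-low libraries, a difference of 0.32 that did not pass (SE 0.14, adjusted p = 0.151). Its level is uncertain, because 84.2% of its exon bases lie opposite exons of Gm10143. By level Fen1 was number 4 of the 34 members in both surgery groups, and number 34, 33 and 34 in CCR2-high, CCR2-low and labelled monocyte libraries.

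Nucleotide supply held some of the widest differences, with 4 of 5 enzymes higher in CCR2-high macrophages. Rrm2 (chr12:24708241-24714146), the subunit of ribonucleotide reductase made in S phase, was at 19.4, 13.7 and 13.8 TPM in CCR2-high libraries, against 3.46, 6.95 and 5.12 TPM in CCR2-low libraries. Its partner Rrm1 (chr7:102441695-102469771) was at 34.8, 30.0 and 26.3 TPM in CCR2-high libraries, against 19.8, 18.5 and 21.7 TPM in CCR2-low libraries. On the log2 scale Rrm2 rose by 1.45 (SE 0.20, adjusted p = 0.000964), and Rrm1 by 0.57 (SE 0.14, adjusted p = 0.0176). Tyms (chr5:30058202-30073617), which makes thymidylate, overlapped between the groups: it was at 4.04, 4.17 and 2.95 TPM in CCR2-high libraries, against 4.04, 2.97 and 3.03 TPM in CCR2-low libraries, and its difference was 0.12 (95% interval -0.21 to 0.44, adjusted p = 0.645). Tk1, which salvages thymidine for the same product, averaged 8.40 ± 1.99 TPM in CCR2-high and 2.75 ± 0.678 TPM in CCR2-low macrophages, a change of 1.32 (SE 0.17, adjusted p = 0.000761). Dut, which removes dUTP, rose by 0.62 (SE 0.12, adjusted p = 0.00529).

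Uhrf1 (chr17:56303321-56323486), which reads hemimethylated DNA behind the fork and recruits Dnmt1, showed the widest difference of the 34 genes. It was at 15.6, 14.6 and 9.63 TPM in CCR2-high libraries, against 3.20, 3.47 and 4.86 TPM in CCR2-low libraries, a log2 change of 1.55 (SE 0.21, adjusted p = 0.000854). The lowest CCR2-high library lay above the highest CCR2-low library. All 3 G1/S regulators also rose. E2f1 (chr2:154559407-154569892), a transcription factor that activates S-phase genes, was at 25.4, 28.9 and 26.1 TPM in CCR2-high libraries, against 19.8, 17.9 and 19.9 TPM in CCR2-low libraries, a change of 0.46 (SE 0.14, adjusted p = 0.0412). Ccne2 (chr4:11191351-11204779), a cyclin E, was at 3.26, 3.02 and 2.75 TPM in CCR2-high libraries, against 1.10, 1.28 and 2.02 TPM in CCR2-low libraries, a change of 0.71 (SE 0.17, adjusted p = 0.0151). The other cyclin E gene, Ccne1, rose by 0.57 (SE 0.15, adjusted p = 0.0215). Of the exon bases of Ccne2, 17.4% lie opposite Ints8.

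The libraries of a group were not alike. CCR2-high replicate 1 was the highest of its group for 23 of 34 genes, and CCR2-high replicate 3 the lowest for 29 of 34. Without CCR2-high replicate 1, or without CCR2-low replicate 1, 16 members passed rather than 24. Over all genes 1481 and 1580 passed in these fits, rather than 2733. In the authors' deposited table, whose test the labels do not name, 7 members had an adjusted p under 0.05 for CCR2-high over CCR2-low (Mcm2, Mcm5, Mcm7, Mcm10, Rrm2, Tk1 and Uhrf1), as had 609 of 15706 genes with a value, and the authors' deposited table gave all 34 members a positive log2 fold change.

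Genes of the same pathway outside the 34 went the same way in part. Of 42 other replication factors, 14 passed as higher in CCR2-high macrophages and 0 as lower (median log2 difference 0.31). Chaf1b, a subunit of the histone chaperone that follows the fork, averaged 4.61 ± 0.836 TPM in CCR2-high and 1.58 ± 0.116 TPM in CCR2-low macrophages (log2 change 1.11, adjusted p = 0.000740). Cdc7, the kinase that fires licensed origins, averaged 4.46 ± 0.391 TPM in CCR2-high and 1.90 ± 0.0394 TPM in CCR2-low macrophages (0.91, adjusted p = 0.00122). Dna2, a nuclease of lagging-strand flaps, and Asf1b, a histone chaperone, rose by 1.85 (adjusted p = 0.00164) and 0.92 (adjusted p = 0.00177). Of 18 other genes of nucleotide supply, 5 were higher and 1 was lower. Umps, of pyrimidine synthesis, rose by 0.80 (adjusted p = 0.00251), Dck, a deoxynucleoside kinase, by 0.69 (adjusted p = 0.00479), and Nme1, a nucleoside diphosphate kinase, by 0.41 (adjusted p = 0.0229). Tk2, the mitochondrial thymidine kinase, which was chosen after its value was seen because it was the one lower gene, averaged 51.9 ± 4.67 TPM in CCR2-high and 72.3 ± 1.07 TPM in CCR2-low macrophages (adjusted p = 0.0287).

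Of 31 tested genes of G1/S control (32 on the list), 10 were higher and 1 was lower in CCR2-high macrophages. E2f2, an activator like E2f1, averaged 3.23 ± 0.849 TPM in CCR2-high and 0.520 ± 0.155 TPM in CCR2-low macrophages (log2 change 1.46, adjusted p = 0.000474). Ccnd2, a D-type cyclin, rose by 1.40 (adjusted p = 0.00180), and Ccna2, the cyclin of S phase, by 1.36 (adjusted p = 0.00489). Cdkn1a, the p21 inhibitor of cyclin-dependent kinases, rose as well, with 360 ± 33.7 TPM in CCR2-high and 221 ± 34.3 TPM in CCR2-low macrophages (0.71, adjusted p = 0.00370). The lower gene was Cdkn1c, another inhibitor of these kinases, named after its value was seen (-0.80, adjusted p = 0.0169). Of 30 mitosis genes, 22 were higher and 0 lower, with a median difference of 0.97. Ube2c, which tags mitotic proteins for degradation, rose by 1.39 (adjusted p = 0.000519), the mitotic kinase Cdk1 by 1.07 (adjusted p = 0.00161) and Mki67, a marker of cycling cells, by 1.00 (adjusted p = 0.00224), and Birc5, of the chromosomal passenger complex, by 1.31 (adjusted p = 0.00384). The ratio of the summed member TPM to the summed mitosis TPM was 1.99, 2.38 and 2.75 in CCR2-high libraries, against 2.99, 3.10 and 2.17 in CCR2-low libraries, so these ratios overlapped.

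Ccr2 and Cx3cr1, whose proteins the sort used, averaged 451 ± 18.2 and 66.97 ± 13.04 TPM in CCR2-high macrophages, against 76.1 ± 8.79 and 2.02 ± 0.485 TPM in CCR2-low macrophages. Markers of some other cell types differed between the 2 macrophage groups. Over 8 fibroblast markers the summed level was 19.5 to 55.2 TPM in CCR2-high and 109 to 191 TPM in CCR2-low libraries, and 7 of 7 tested were lower in CCR2-high. Over 8 endothelial markers it was 33.1 to 54.5 TPM in CCR2-high and 133 to 136 TPM in CCR2-low libraries, with 8 of 8 lower in CCR2-high. The 12 macrophage markers summed to 13708 to 16789 TPM in CCR2-high and 18567 to 21296 TPM in CCR2-low libraries, with 6 lower and 1 higher in CCR2-high, and the 12 monocyte markers to 3090 to 3394 TPM in CCR2-high and 3691 to 4229 TPM in CCR2-low libraries, where 7 of 11 tested were higher and 1 lower in CCR2-high. Erythroid markers summed to 777 to 1268 TPM in CCR2-high and 2118 to 2827 TPM in CCR2-low libraries, with 6 of 7 tested lower in CCR2-high. The part of these differences in the results above was not tested. The 14 progenitor markers summed to 72.9 to 91.9 TPM in CCR2-high and 54.9 to 72.2 TPM in CCR2-low libraries, without overlap, and 1 was higher and 1 lower by the test. Most of that sum was Cd93, at 71.2 ± 10.9 TPM in CCR2-high and 42.9 ± 4.63 TPM in CCR2-low macrophages, while Mpo averaged 0.0395 ± 0.0161 TPM in CCR2-high and 0.0507 ± 0.0318 TPM in CCR2-low macrophages, and Ms4a3 was at 0 in all 6 libraries. Cd93 and Ms4a3 were named after their values were seen. Neutrophil markers summed to 33.8 to 82.9 TPM in CCR2-high and 68.3 to 84.9 TPM in CCR2-low libraries.

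**Figure D3:**
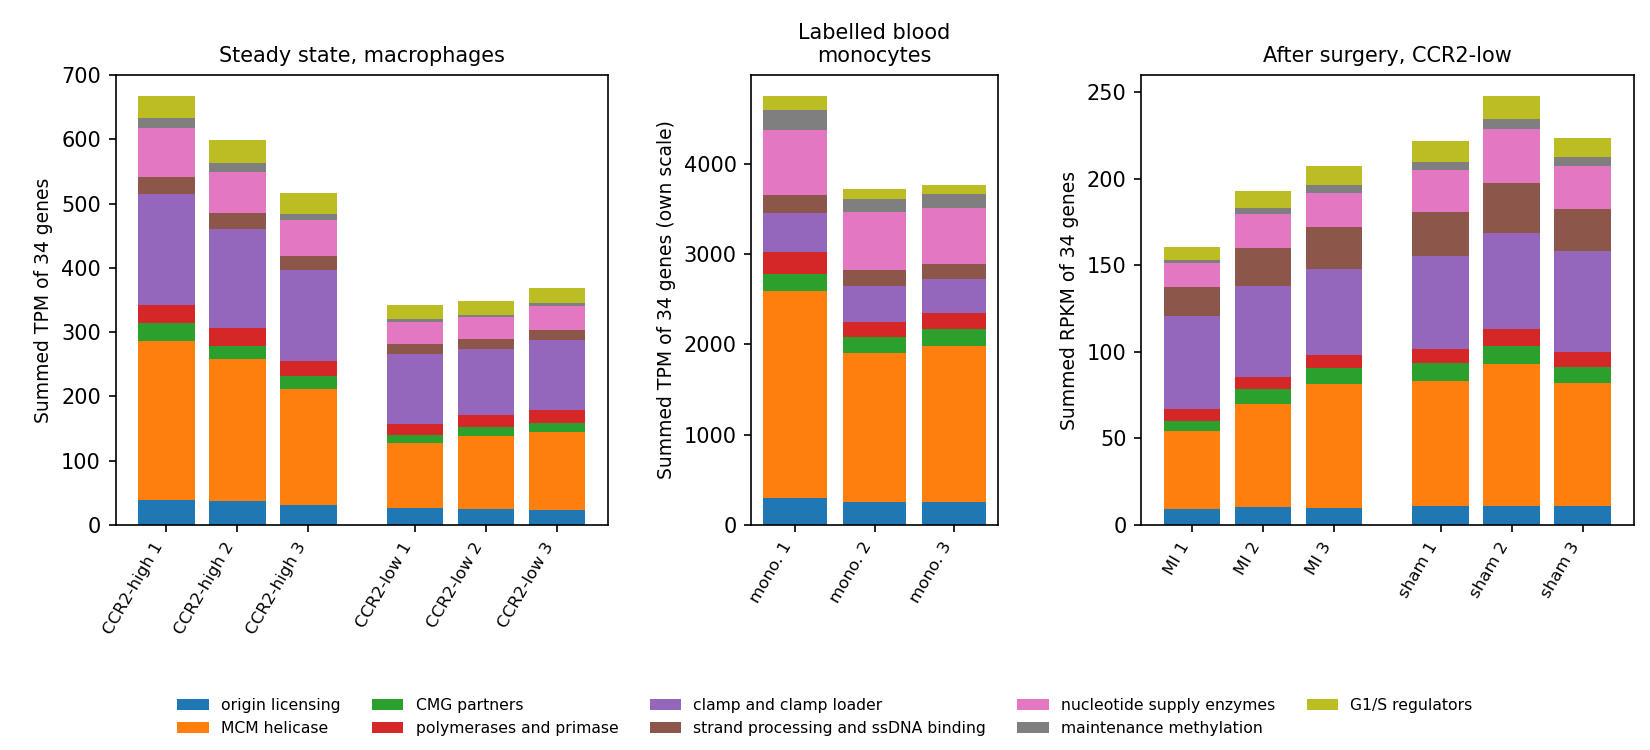
Summed level of the 34 genes in each library, stacked by role; TPM for the macrophages (left) and libraries labelled blood monocytes (middle, on its own scale), RPKM for the surgery libraries (right). The CCR2-high sums of 517 to 667 TPM all lie above the CCR2-low sums of 343 to 369 TPM, and the MI sums of 161 to 208 RPKM lie below the sham sums of 222 to 248 RPKM.

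Both macrophage groups held less transcript of every member than the libraries labelled blood monocytes. The 34 genes summed to 517 to 667 TPM in CCR2-high and 343 to 369 TPM in CCR2-low libraries, against 4742, 3721 and 3766 TPM in the labelled monocyte libraries. All 34 of 34 members passed as lower in CCR2-high macrophages, beside 51.3% of all genes tested. All 34 also passed as lower in CCR2-low macrophages, beside 50.6% of all genes. The median log2 differences were -2.86 for CCR2-high (range -4.00 to -0.80) and -3.44 for CCR2-low macrophages (range -5.22 to -1.35), beside -0.42 and -0.40 over all genes. These comparisons share the labelled monocyte libraries. With libraries rescaled by the median of ratios, the median of all genes moved to 0.06 and 0.09, and the share of called genes that were lower moved to 47.2% for CCR2-high and 46.3% for CCR2-low, against 65.9% and 64% as deposited. All 34 members still passed as lower under that scaling, with medians of -2.33 and -2.94. As given above, the progenitor markers of the labelled monocyte libraries reached a summed level not seen in the macrophage libraries. By the test 13 of 14 were lower in CCR2-high and 14 of 14 in CCR2-low macrophages. The part of such cells in the differences of the members was not tested.

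The helicase showed differences of a similar order throughout. Mcm6 was at 77.9, 67.5 and 51.1 TPM in CCR2-high and 30.4, 34.4 and 40.3 TPM in CCR2-low libraries, against 636, 464 and 490 TPM in the labelled monocyte libraries, so that all macrophage libraries lay far below. Its log2 changes were -3.00 for CCR2-high (SE 0.17, adjusted p = 4.35e-08) and -3.88 for CCR2-low macrophages (SE 0.17, adjusted p = 4.89e-09). Cdc45 showed the widest change in CCR2-high macrophages, with 5.95 ± 0.869 TPM against 110.1 ± 7.004 TPM in labelled monocyte libraries, 16.0-fold lower (log2 change -4.00, SE 0.13, adjusted p = 4.55e-10). Rrm2 showed it in CCR2-low macrophages, with 5.18 ± 1.74 TPM against 224 ± 20.4 TPM, 37.4-fold lower (log2 change -5.22, SE 0.20, adjusted p = 1.69e-09), and Uhrf1 followed with 3.84 ± 0.895 TPM against 172 ± 40.2 TPM (-5.15, SE 0.21, adjusted p = 2.65e-09). By role, the median for CCR2-high macrophages was -3.16 for the MCM subunits, -3.03 for licensing factors, -3.19 for nucleotide supply and -2.86 for polymerases, and it was narrower at -2.54 for strand processing, -2.40 for G1/S regulators, -2.29 for the clamp and its loader and -2.05 for helicase partners.

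Pcna and E2f1 showed the narrowest changes. Pcna was at 141, 124 and 115 TPM in CCR2-high libraries, against 244, 219.5 and 200.1 TPM in the labelled monocyte libraries, which is 1.74-fold lower (-0.80, SE 0.11, adjusted p = 3.61e-05). E2f1 was at 25.4, 28.9 and 26.1 TPM in CCR2-high libraries, against 75.3, 54.4 and 53.2 TPM in the labelled monocyte libraries (-1.14, SE 0.14, adjusted p = 1.52e-05). In CCR2-low macrophages their changes were -1.35 and -1.60, again the narrowest pair. In the authors' deposited table these were also the members without an adjusted p under 0.05 for monocyte over CCR2-high, where 32 of 34 had one. All 34 had one for monocyte over CCR2-low in the authors' deposited table. The share of all genes with one was not worked out there for the monocyte comparisons. By limma, 77.8% of all genes tested passed in either direction for CCR2-high against labelled monocyte libraries, and 79% for CCR2-low. Other members with narrower changes in CCR2-high macrophages were Gins2 (-1.84), Orc6 (-1.98), Pola1 (-2.03), Rfc3 (-2.04) and Gins1 (-2.05). Orc6 was at 16.9, 18.1 and 13.7 TPM in CCR2-high libraries, against 68.9, 67.5 and 63.6 TPM in the labelled monocyte libraries.

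The other genes of the pathway mostly fell with the members. In CCR2-high macrophages 39 of 42 other replication factors passed as lower and 0 as higher, and in CCR2-low macrophages 41 of 42 and 0. Rfc2, a further clamp-loader subunit, averaged 47.4 ± 3.73 TPM in CCR2-high macrophages, against 287 ± 22.3 TPM in labelled monocyte libraries (-2.57, adjusted p = 1.51e-09). Pold2, a polymerase delta subunit, and Pola2, of polymerase alpha, fell by 2.74 and 2.38 on the log2 scale in CCR2-high macrophages (adjusted p = 2.98e-09 and 1.54e-08). All 30 mitosis genes were lower in both macrophage groups. Nucleotide supply was mixed, with 13 of 18 lower and 3 higher in CCR2-high, and 14 lower and 4 higher in CCR2-low macrophages. Dtymk, which phosphorylates thymidylate, averaged 14.5 ± 1.496 TPM in CCR2-high macrophages, against 106 ± 1.012 TPM (-2.79, adjusted p = 2.22e-09). Samhd1, which breaks deoxynucleotides down and was chosen after its value was seen, averaged 52.1 ± 2.41 TPM in CCR2-high and 51.01 ± 6.06 TPM in CCR2-low macrophages, against 10.4 ± 0.743 TPM in labelled monocyte libraries, a log2 change of 2.22 for CCR2-high. G1/S control had 23 of 31 genes lower and 6 higher in CCR2-high, and 22 lower and 7 higher in CCR2-low macrophages. Cdkn1a was among the higher ones, with 360 ± 33.7 TPM in CCR2-high and 221 ± 34.3 TPM in CCR2-low macrophages, against 11.8 ± 0.965 TPM in labelled monocyte libraries (4.81 for CCR2-high, adjusted p = 8.79e-11). Cdk4, the kinase of D-type cyclins, averaged 47.7 ± 4.64 TPM in CCR2-high macrophages, against 286 ± 20.6 TPM, and fell by 2.56 (adjusted p = 1.98e-09).

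After surgery, CCR2-low macrophages of MI mice were compared with those of sham mice, and 0 members passed the test. MI replicate 1 stood apart in the transcripts of the sort markers Ccr2 and Cx3cr1, which were at 8.09 and 5.11 RPKM in it. In the other MI libraries they were at 26.8 to 27.4 and 18.6 to 18.9 RPKM. In sham libraries they were at 31.5 to 41.4 and 18.1 to 25.6 RPKM. It was the lowest MI library for 28 of 34 members. The 34 genes summed to 161, 193 and 208 RPKM in MI libraries, against 222, 248 and 224 RPKM in sham libraries, and the sums did not overlap. Mcm10, Orc1, Pole and Ccne2 were too low to be tested, which left 30 members. Over all 9607 genes tested 0% were called, and 753 genes and 11 members had an unadjusted p under 0.05. Of the 30 members 29 had a log2 difference below 0, as had 5248 of the 9607 genes. The median was -0.32 on the log2(RPKM + 1) scale (lowest -0.86, highest 0.03, median SE 0.13), beside -0.02 for all genes, and without MI replicate 1 it was -0.18.

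**Figure D4:**
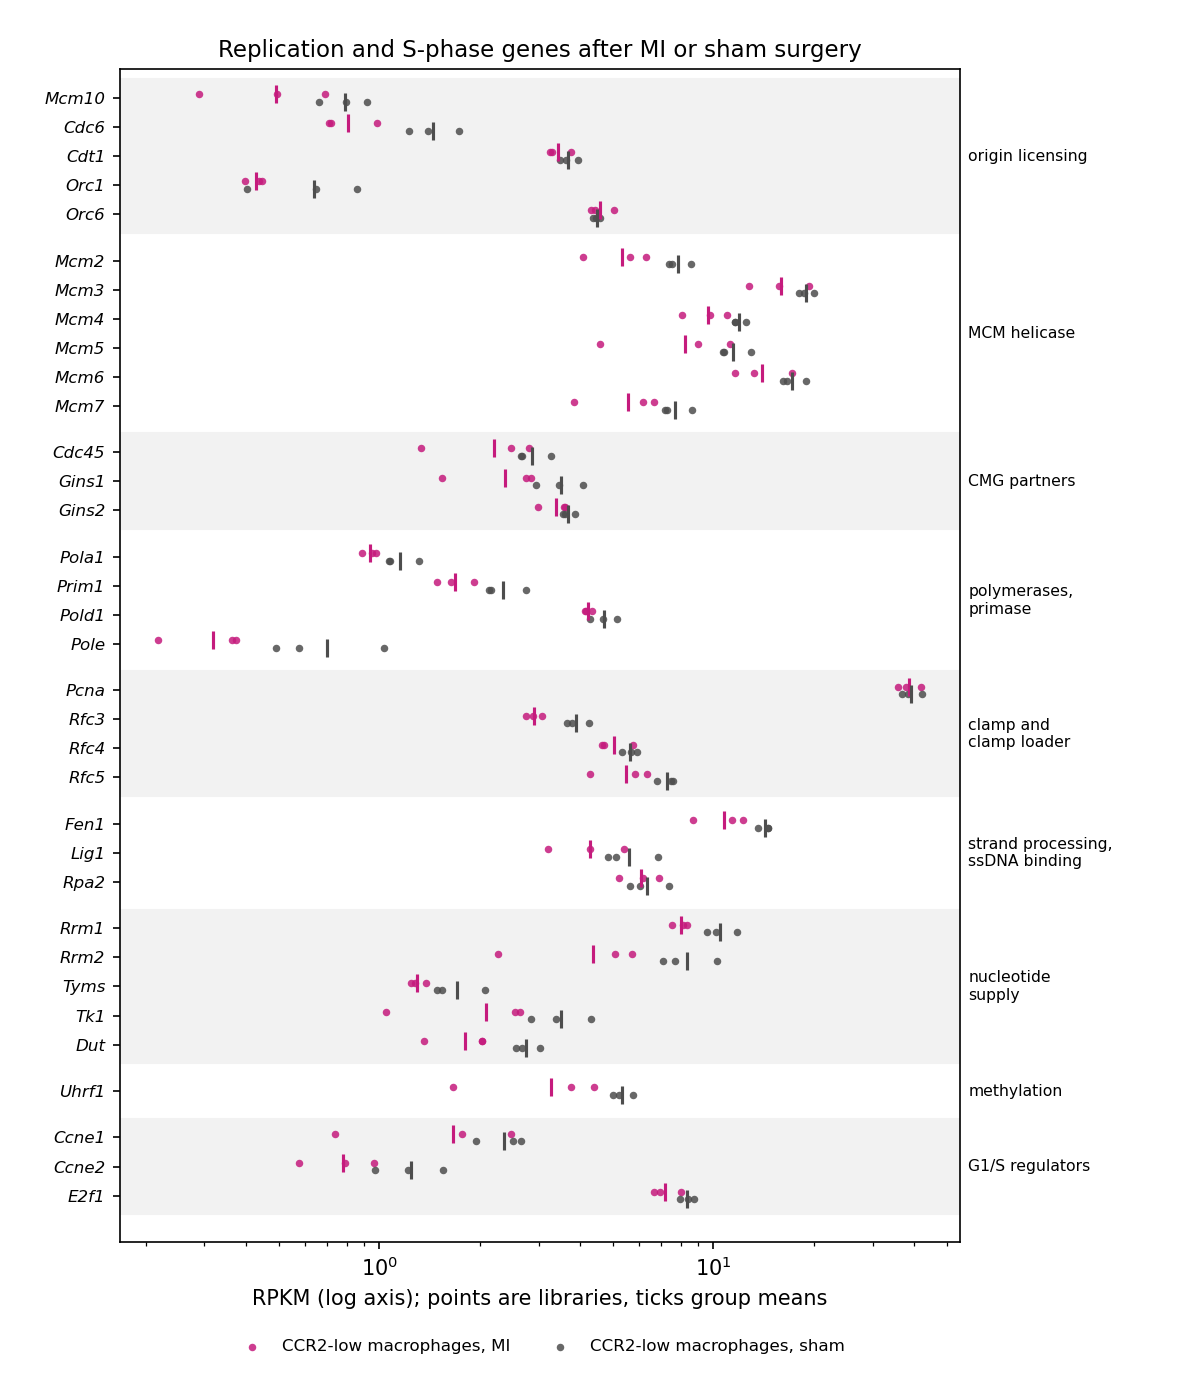
RPKM of each of the 34 genes (rows, grouped by role; log axis) in 3 MI and 3 sham libraries of CCR2-low macrophages, with points for libraries and ticks for group means. For 16 of the 30 tested genes the MI libraries lie left of the sham libraries without overlap, and 0 genes passed the test. Of the 16, Cdc6 and Pola1 passed the filter on low values only through the sham libraries.

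For 16 of the 30 tested members (53.3%) the 3 MI libraries lay below the 3 sham libraries, beside 8.71% of all genes tested. The 16 were Mcm2, Mcm4, Mcm7, Cdc6, Gins1, Prim1, Pola1, Rfc3, Rfc5, Fen1, Rrm1, Rrm2, Tyms, Tk1, Dut and Uhrf1. Cdc6 (0.709 to 0.989 RPKM in MI, 1.23 to 1.73 in sham) reached 1 RPKM only in sham libraries. So did Pola1 (0.887 to 0.981 RPKM in MI, 1.07 to 1.32 in sham). Both entered the test through the sham libraries alone, so their lack of overlap was fixed by the filter. The same filter applied to all genes tested. Without MI replicate 1 the same 16 did not overlap (14.5% of all genes). Leaving out any other library gave 16 to 24, beside 12.2% to 16.6% of all genes. With the columns scaled to equal totals 16 did not overlap (6.35% of all genes), with E2f1 in place of Pola1. These are counts of order within the libraries, and for none of the 16 was the adjusted p under 0.50. The summed level by role was lower in every MI library than in every sham library for nucleotide supply (13.5 to 19.8 RPKM in MI, 24.2 to 31.5 RPKM in sham), polymerases (6.82 to 7.51 RPKM in MI, 7.99 to 10.3 RPKM in sham) and Uhrf1, also with the columns, whose totals differ, scaled to equal totals. Licensing factors (9.14 to 10.2 RPKM in MI, 10.7 to 11.2 RPKM in sham) and helicase partners (5.85 to 9.16 RPKM in MI, 9.17 to 10.6 RPKM in sham) did not overlap as deposited but did when so scaled. The MCM subunits (45.1 to 71.7 RPKM in MI, 71.2 to 81.7 RPKM in sham) and strand processing (17.2 to 24.6 RPKM in MI, 24.4 to 28.8 RPKM in sham) overlapped as deposited but not when scaled. The clamp and its loader (49.4 to 53.8 RPKM in MI, 53.7 to 58.6 RPKM in sham) and the G1/S regulators (7.99 to 11.3 RPKM in MI, 10.9 to 12.9 RPKM in sham) overlapped both ways.

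Rrm2 had the lowest log2 difference, with 2.28, 5.09 and 5.71 RPKM in MI libraries, against 7.10, 10.3 and 7.68 RPKM in sham libraries (-0.86, 95% interval -1.53 to -0.18, adjusted p = 0.556). Without MI replicate 1 it was -0.53, and that library moved Uhrf1 to -0.32, Tk1 to -0.31 and Mcm5 to -0.17 when left out. Rrm1 was at 7.51, 8.37 and 8.14 RPKM in MI libraries, against 10.2, 11.8 and 9.55 RPKM in sham libraries (-0.35, interval -0.59 to -0.11, adjusted p = 0.545). Tyms was at 1.28, 1.38 and 1.25 RPKM in MI libraries, against 1.49, 2.08 and 1.54 RPKM in sham libraries (-0.23, adjusted p = 0.699). For each of these 3 enzymes the MI libraries were all lower, and for Rrm1 and Tyms MI replicate 1 was close to the other MI libraries. Tk1 and Dut differed by -0.58 (adjusted p = 0.639) and -0.43 (adjusted p = 0.554), also without overlap. Uhrf1 was at 1.66, 3.75 and 4.40 RPKM in MI libraries, against 5.01, 5.75 and 5.24 RPKM in sham libraries (-0.63, interval -1.24 to -0.02, adjusted p = 0.621).

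Of the helicase, Mcm6 was at 11.7, 13.2 and 17.2 RPKM in MI libraries, against 16.6, 19.0 and 16.2 RPKM in sham libraries (-0.30, adjusted p = 0.707). Mcm3 was at 12.8, 15.8 and 19.3 RPKM in MI libraries, against 18.6, 19.997 and 18.1 RPKM in sham libraries (-0.25, adjusted p = 0.756). For both, MI replicate 3 lay within the sham libraries. Mcm2, Mcm4, Mcm5 and Mcm7 differed by -0.49, -0.29, -0.50 and -0.43, with adjusted p between 0.554 and 0.733. Cdc45 was at 1.33, 2.48 and 2.82 RPKM in MI libraries, against 3.27, 2.66 and 2.67 RPKM in sham libraries (-0.30, adjusted p = 0.779). Gins1 was at 1.54, 2.84 and 2.75 RPKM in MI libraries, against 3.46, 4.07 and 2.94 RPKM in sham libraries (-0.43, adjusted p = 0.648). The groups overlapped for Cdc45 but not for Gins1, and Gins2 differed by -0.09 (adjusted p = 0.843).

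The licensing factors split. Cdc6 averaged 0.805 ± 0.159 RPKM in MI and 1.45 ± 0.259 RPKM in sham libraries (-0.44, adjusted p = 0.525). Cdt1 was at 3.30, 3.74 and 3.25 RPKM in MI libraries, against 3.93, 3.47 and 3.62 RPKM in sham libraries (-0.08, adjusted p = 0.873). Orc6 was at 4.44, 4.29 and 5.03 RPKM in MI libraries, against 4.38, 4.46 and 4.59 RPKM in sham libraries, and was the one tested member with a log2 difference above 0 (0.03, interval -0.18 to 0.23, adjusted p = 0.953). Cdt1 and Orc6 overlapped between the groups. Of the 4 untested members, Mcm10 was at 0.290, 0.689 and 0.495 RPKM in MI libraries, against 0.793, 0.918 and 0.661 RPKM in sham libraries. Orc1 averaged 0.428 ± 0.0261 RPKM in MI and 0.637 ± 0.229 RPKM in sham libraries, and Pole averaged 0.318 ± 0.0870 RPKM in MI and 0.700 ± 0.291 RPKM in sham libraries. Ccne2 was at 0.576, 0.968 and 0.790 RPKM in MI libraries, against 1.22, 1.55 and 0.973 RPKM in sham libraries, so the highest MI value lay just under the lowest sham value.

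Pcna, the most abundant member, was at 42.0, 37.8 and 35.8 RPKM in MI libraries, against 36.7, 38.2 and 42.1 RPKM in sham libraries, with full overlap and a difference of -0.02 (interval -0.27 to 0.23, adjusted p = 0.981). Rfc4 was at 4.63, 5.77 and 4.71 RPKM in MI libraries, against 5.33, 5.67 and 5.91 RPKM in sham libraries (-0.14, adjusted p = 0.795). Rfc3 and Rfc5 differed by -0.33 (adjusted p = 0.506) and -0.37 (adjusted p = 0.592) without overlap. Prim1 was at 1.49, 1.64 and 1.92 RPKM in MI libraries, against 2.16, 2.76 and 2.13 RPKM in sham libraries (-0.32, adjusted p = 0.578). Pold1 was at 4.14, 4.15 and 4.33 RPKM in MI libraries, against 4.27, 5.17 and 4.67 RPKM in sham libraries (-0.13, adjusted p = 0.790). Only Prim1 of this pair was without overlap, and Pola1 was without overlap at a difference of -0.15 (adjusted p = 0.766).

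Lig1 was at 3.19, 4.28 and 5.40 RPKM in MI libraries, against 4.85, 6.85 and 5.13 RPKM in sham libraries (-0.33, adjusted p = 0.734). Fen1 was at 8.72, 11.4 and 12.3 RPKM in MI libraries, against 14.6, 14.6 and 13.6 RPKM in sham libraries (-0.38, adjusted p = 0.569), with the exon overlap given above. Rpa2 was at 5.24, 6.18 and 6.87 RPKM in MI libraries, against 6.04, 7.38 and 5.62 RPKM in sham libraries (-0.05, adjusted p = 0.943). Of these 3, Lig1 and Rpa2 overlapped. E2f1 was at 6.67, 6.93 and 7.98 RPKM in MI libraries, against 8.42, 8.74 and 7.95 RPKM in sham libraries (-0.20, adjusted p = 0.678). Ccne1 averaged 1.66 ± 0.874 RPKM in MI and 2.37 ± 0.373 RPKM in sham libraries (-0.39, adjusted p = 0.775), and both regulators overlapped.

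None of the 4 pathway lists held a gene that passed after MI, by limma: 0 of 35 tested other replication factors, 0 of 17 of nucleotide supply, 0 of 24 of G1/S control and 0 of 26 mitosis genes. Their median differences were -0.10, -0.03, -0.09 and -0.57. The mitosis genes summed to 42.0, 103 and 75.8 RPKM in MI libraries, against 105, 138 and 116 RPKM in sham libraries. These did not overlap as deposited, but did with the columns scaled to equal totals (MI replicate 2 at 258.2 and sham replicate 1 at 248.6 per 1e6). Aurkb, a mitotic kinase, averaged 5.78 ± 1.93 RPKM in MI and 10.2 ± 0.891 RPKM in sham libraries (-0.77, adjusted p = 0.547), and Top2a, which untangles chromosomes, 2.10 ± 0.788 RPKM in MI and 3.75 ± 0.318 RPKM in sham libraries (-0.64, adjusted p = 0.554). Rnaseh2b, of ribonucleotide removal, and Rfc2 differed by -0.35 (adjusted p = 0.578) and -0.29 (adjusted p = 0.603).

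Fibroblast, neutrophil, erythroid and monocyte marker sums were higher, and T and NK cell sums lower, in every MI library than in every sham library. Endothelial, mesothelial and B cell sums overlapped, the last at 144 to 379 RPKM in MI and 190 to 298 RPKM in sham libraries. Fibroblast markers summed to 72.2 to 106 RPKM in MI and 22.9 to 46.2 RPKM in sham libraries. Neutrophil markers summed to 139 to 219 RPKM in MI and 41.1 to 110 RPKM in sham libraries, with S100a8 at 66.8 ± 19.0 RPKM in MI and 28.8 ± 12.8 RPKM in sham libraries. Erythroid markers summed to 126 to 293 RPKM in MI and 59.1 to 122 RPKM in sham libraries. Monocyte markers summed to 937 to 1233 RPKM in MI and 809 to 929 RPKM in sham libraries, which overlapped once the columns were scaled to equal totals. T and NK cell markers summed to 1.17 to 2.87 RPKM in MI and 4.01 to 5.84 RPKM in sham libraries. These values are near the floor, since only 1 of these 10 genes passed the filter on low values (log2 difference -0.37). By limma 0 genes of these lists passed, and their part in the members' values was not tested. Progenitor markers were low in both groups, at 11.5 to 16.2 RPKM in MI and 10.8 to 12.5 RPKM in sham libraries, and the macrophage list summed to 8879 to 11208 RPKM in MI and 9282 to 10319 RPKM in sham libraries.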

How the data were processed

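Gene-level values of 15 libraries, 3 per group, were used as deposited. For the steady state the authors deposited TPM per library and gene, per the file headers, each column summing to 1000000. The same table holds log2 fold changes and adjusted p-values of the authors, by a test that the sources used here do not name. For the surgery groups the authors deposited RPKM, from paired and trimmed reads per the file headers. The submitters' processing notes name mm10 as the build. Aligner, counter, annotation and use of strand: not given in the sources used here. Other deposited lists hold gene lengths, which gave approximate read numbers because low values are multiples of 1 read over the length. Positions and exon overlaps come from GENCODE M21.

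Values were tested as log2(value + 1) in limma 3.58.1 (R 4.3.3; eBayes with a trend on mean intensity), keeping genes that reached 1 in 3 libraries or more. The 9 steady-state libraries entered one fit and the 6 surgery libraries another, and the procedure was tested on simulated data. No count test was run, since the values are not counts. The members and the gene lists were chosen with earlier results of these data known. Every member is named. Those given library by library are the 2 most abundant of each role and any whose call or direction differed from most of its role. Named pathway genes are up to 4 with the smallest p of their list, of which 1 is not reported here, and named markers are the first of their list. Libraries with the same title number did not deviate together and were not paired. Alternatives were pseudocounts of 0.1 and 0.5, other filters and scalings, robust eBayes, a replicate block, fits of only the libraries compared, and each library left out in turn.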

Additional observations from a re-analysis of the deposited data

How the results depend on the processing

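In CCR2-high against CCR2-low macrophages, 0 members were lower under any setting, and 16 to 31 members passed: 26 and 25 with pseudocounts of 0.1 and 0.5, 21 with no filter, 24 with a minimum of 5, 26 with median-of-ratios scaling, 31 with quantile normalization, 24 with robust eBayes, 23 with only the 6 libraries compared and 16 to 22 with 1 library left out. Over all genes 2733 passed, and the count moved with the setting too. It was 2501 and 2696 with pseudocounts of 0.1 and 0.5, 2176 with no filter and 2237 with a minimum of 5. Median-of-ratios scaling gave 3064, quantile normalization 3097, robust eBayes 2710 and only the 6 libraries compared 2743. With 1 library left out 1481 to 2424 genes passed, each time with fewer libraries in the fit. Leaving out CCR2-high replicate 1 gave 1481 genes and leaving out replicate 3 of that group 1800, while for CCR2-low replicate 1 the count was 1580, and for its replicate 3 it was 1612. With the title numbers as a replicate block 1795 genes and 19 members passed, and Gins1, Gins2, Rpa2, Ccne1 and E2f1 no longer did; the numbers did not pair the libraries (correlations of deviations -0.03, -0.36 and -0.22). In both comparisons with labelled monocytes all 34 members passed as lower in every setting, the block included. In MI against sham 0 members and 0 genes passed, under both blocks too, except that 5 genes passed without MI replicate 3, all higher in MI and none a member (Car3, Cidec, Ctla2b, Gpx3 and Sparcl1, named after their values were seen). Some differences near 0 changed sign. Pcna stood at 0.0015 with median-of-ratios scaling. With 1 library left out Pcna ran between -0.0787 and 0.0385 (above 0 without MI replicate 3 or sham replicate 3), Rpa2 between -0.127 and 0.0495 (above 0 without MI replicate 1 or sham replicate 2), and Orc6 between -0.0291 (without MI replicate 3) and 0.0650. The count of members with no overlap, whose alternatives were added after seeing the data, was 16, 18 and 24 without MI replicate 1, 2 and 3, 17, 16 and 19 without sham replicate 1, 2 and 3, and 16 with columns scaled to equal totals. The share of all genes rose as well when a library was left out, from 8.71% with all libraries. It was 14.5%, 15.1% and 16.6% without MI replicate 1, 2 and 3, and 12.2%, 12.7% and 12.6% without sham replicate 1, 2 and 3. With columns scaled to equal totals it was 6.35%. The cause of these shifts was not tested. Depth limits the lowest members, of which Orc1 rests on as few as 52 reads in a library.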
